A study of Mus musculus with 4 samples.

Results

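Heat shock proteins, chaperonins and DNAJ co-chaperones fold new proteins, keep damaged ones from clumping and carry proteins into organelles. The 78 genes described here were taken by symbol from 50600 listed genes: the protein-coding Hsp90a, Hspa, Hspb, Dnaja, Dnajb and Dnajc genes, Hspd1, Hspe1, Hsph1 and the 8 subunits of the cytosolic chaperonin CCT (Tcp1, Cct2, Cct3, Cct4, Cct5, Cct6a, Cct7 and Cct8). Hspa5, Hspbap1 and Hspbp1 were left out by the rule. GENCODE release 21 types 77 of the 78 as protein-coding, and Cct6a as a processed transcript. Cct6a was kept because the rule names it.

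The RNA came from primary T-helper 17 (Th17) cells of the mouse strain C57BL/6NJ, a class of CD4 T cells that make interleukin 17. There was 1 group of 4 libraries, numbered as biological replicates 1 to 4, with no treated, mutant or control group. Age was unknown and sex not collected, and 1 donor label was shared by all 4. The linked protocol is named for differentiation of CD4 T cells, and the library names hold 72 hr and the word sorted. Whether the replicates are separate animals or cultures is not stated, and p-values therefore reflect library-to-library spread alone, which may be technical.

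In this chaperone network, Hsp70 proteins (the Hspa genes) bind short hydrophobic stretches of unfolded proteins, J proteins (the Dnaja, Dnajb and Dnajc genes) deliver the substrate and trigger ATP hydrolysis, and Hsp110 proteins exchange the nucleotide. Hsp90 takes over kinases and steroid receptors in a late folding state, while the ring-shaped chaperonins, CCT in the cytosol and Hsp60 with its lid Hsp10 in mitochondria, enclose their substrates. Among these genes are some expressed in most cells, some that heat shock factor 1 induces under stress, and some known mainly from testis, muscle or brain. T cells that grow after activation make much new protein and are known to raise several of these chaperones.

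Library totals ran from 9382661 counts in replicate 3 to 34542693 in replicate 1, and the chaperone genes held 1.87% to 2.10% of them. Levels are TPM, in which counts divided by the length of all exons of a gene are scaled to the same sum in every library; CPM, where used, are counts scaled by library size with no length. For a gene of 1 kb, 3 counts, the limit that a count of 0 allows, correspond to 0.286 to 1.05 TPM in single libraries. The 6 Th17 and 4 CD4 T cell markers examined were at 1 TPM or more in every library. Of 23 markers of other cell types 3 averaged 1 TPM or more (Cd8b1, Cd14 and Pecam1), and all 23 together summed to 22.2 to 29.2 TPM. Their part in the levels below was not tested.

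Most of the chaperone network was transcribed in Th17 cells, and a few genes carried most of its RNA. In every library 62 of the 78 genes (79.5%) reached 1 TPM, against 47.6% of the 21751 protein-coding genes outside the mitochondrial genome. The other 16 averaged below 1 TPM, and 8 of these had no count in any library: Dnajb7, Dnajb8, Dnajc5b, Dnajc5g, Hspb2, Hspb3, Hspb8 and Hspb9. Together the 78 genes made up 1.83%, 1.83%, 1.94% and 1.72% of all TPM in replicates 1 to 4 (mean 1.83% ± 0.0905, SD, n = 4). The 5 most abundant, Hsp90ab1, Hspa8, Hspd1, Cct2 and Hsp90aa1, held 55.6% of this sum, while the median gene stood at 27.6 TPM. This ranking used the length of all exons. With the length of 1 main transcript per gene, Tcp1, Cct5 and Hspa9, at 842, 808 and 788 TPM, stood above Hsp90aa1, at 751 TPM. In bulk RNA, fewer cells expressing a gene and less RNA per cell cannot be told apart.

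**Figure D1:**
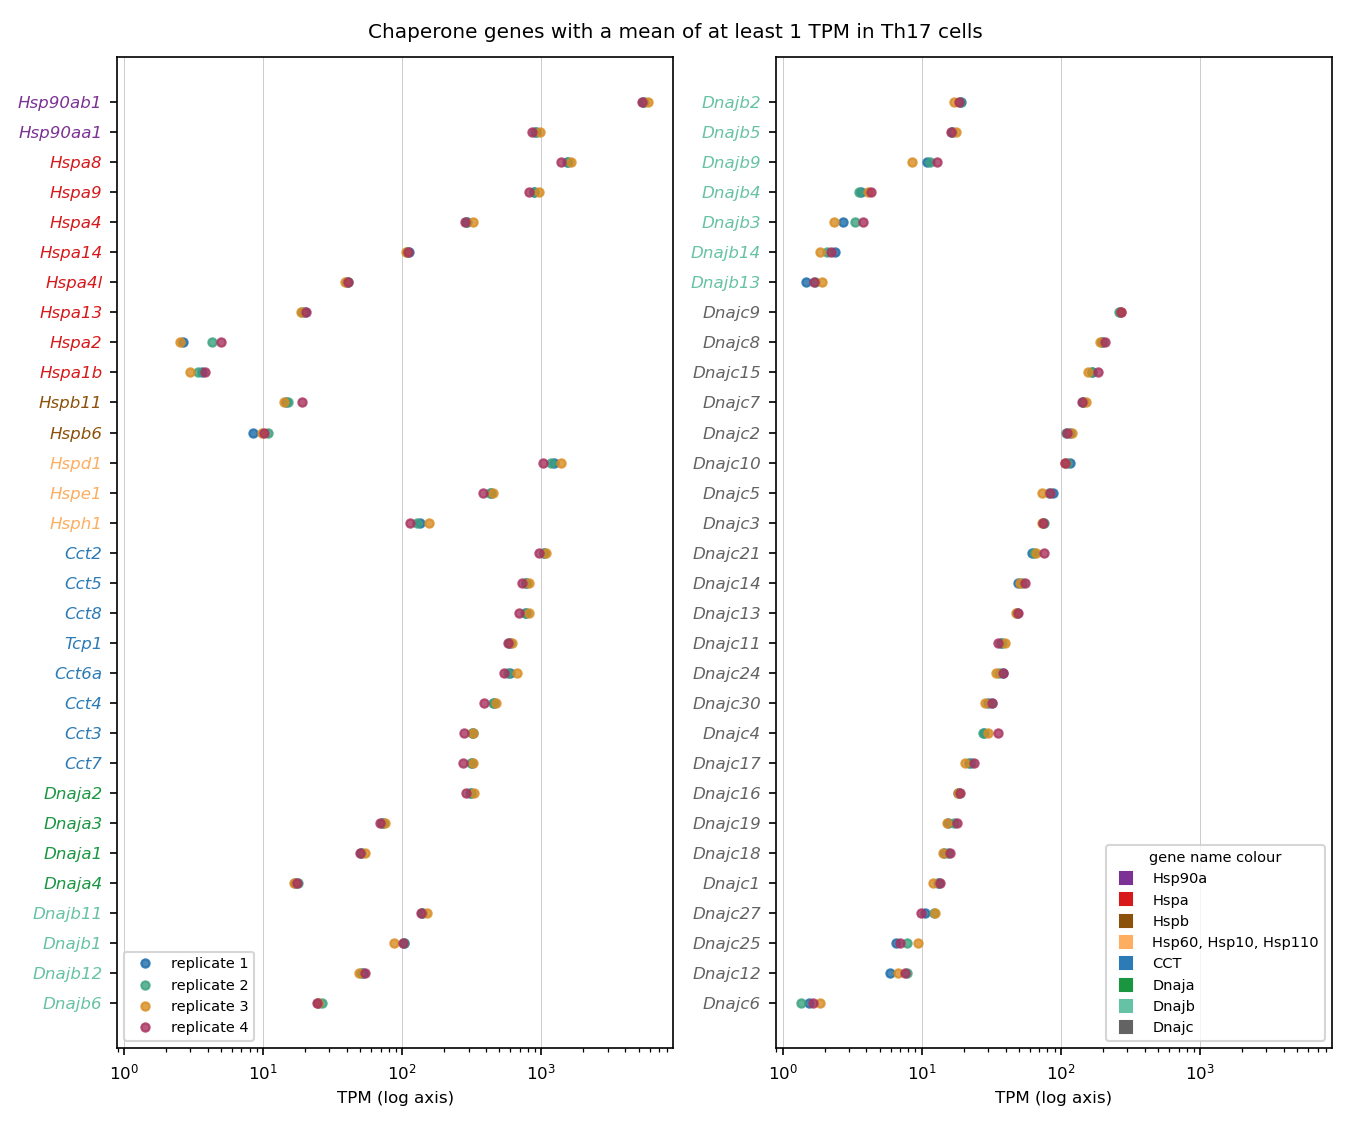
TPM (log axis) of the chaperone genes with a mean of at least 1 TPM, by family and by falling mean within it; each point is 1 of the 4 libraries, and the colour of a gene name gives its family. The points of a gene lie close together compared with the distance from Hsp90ab1, at 5287 to 5838 TPM, to Dnajc6, at 1.36 to 1.84 TPM.

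With the length of all exons, Hsp90 was the largest family by summed TPM, at 0.642% ± 0.0284 of all TPM (SD, n = 4). With the length of 1 main transcript per gene, the CCT subunits together stood above the Hsp90 genes. Hsp90ab1, the constitutive cytosolic Hsp90 beta, had 5417, 5500, 5838 and 5287 TPM in replicates 1 to 4, and ranked 9 by mean TPM among protein-coding genes outside the mitochondrial genome. Hsp90aa1, the stress-inducible Hsp90 alpha, had 912.7, 901 and 976.8 TPM in replicates 1 to 3 and 855.4 TPM in replicate 4. The lowest value of Hsp90ab1 lay far above the highest of Hsp90aa1. The ratio of beta to alpha was 6.05 ± 0.113 (SD, n = 4). Of the 50-base windows of the main Hsp90aa1 transcript, 58.5% also occur in transcripts of other loci. Reads that map to several places were not counted, so such genes may be set too low; how many reads were lost was not measured for any gene named here.

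Among the 12 Hsp70 and related Hspa genes the constitutive members led and the heat-inducible Hspa1a and Hspa1b were low. Hspa8, the constitutive cytosolic Hsc70, had 1530, 1555, 1648 and 1389 TPM in replicates 1 to 4, and 74.8% of its windows occur in transcripts of other loci. Hspa9, the mitochondrial Hsp70 called mortalin, averaged 889 ± 60.4 TPM (SD, n = 4). Hspa14, a ribosome-associated Hsp70-like protein, averaged 109 ± 2.05 TPM (170 with 1 main transcript), and Hspa13, a microsomal Hsp70 relative that lacks the substrate-binding domain, 19.5 ± 0.758 TPM (SD, n = 4 each).

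The heat-inducible pair Hspa1a and Hspa1b lay far below Hspa8. Hspa1b had 3.64, 3.398, 3.00 and 3.83 TPM in replicates 1 to 4, and Hspa1a had 0.482, 0.791, 0.946 and 1.00 TPM. Hspa1b was higher in all 4 libraries, without overlap. The coding sequences of this pair are nearly the same: 60.4% of the Hspa1a windows and 62.3% of the Hspa1b windows also occur in transcripts of other loci, so both values are uncertain. Hspa2, known mainly from testis, had 2.67, 4.33, 2.52 and 5.01 TPM. Its libraries differed by more than those of most other members, with replicates 2 and 4 high and replicates 1 and 3 low. Hspa12a, Hspa12b and Hspa1l averaged 0.207, 0.0474 and 0.0289 TPM, from 31, 4 and 3 counts over all 4 libraries.

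The Hsp110 genes encode nucleotide exchange factors that share the Hsp70 fold. Hspa4 averaged 298 ± 17.8 TPM and its relative Hspa4l 40.0 ± 1.01 TPM (SD, n = 4 each). Hsph1, the heat-inducible Hsp105, had 133.6, 128, 155.1 and 113.6 TPM in replicates 1 to 4. Replicate 3 was the highest and replicate 4 the lowest library for Hsph1.

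The mitochondrial chaperonin Hspd1 (Hsp60) and its co-chaperonin Hspe1 (Hsp10) are head-to-head genes on chromosome 1 that share a promoter. Heat shock factors bind repeats of the unit GAA and its reverse complement TTC, spaced by 2 bases. Promoter windows of 250 bases before to 50 after the start were read from RefSeq (GRCm38.p6), which had one for 63 of the 78 genes, and searched on both strands for 3 units in a row (GAANNTTCNNGAA or TTCNNGAANNTTC, each the reverse complement of the other) and for 2 units (GAANNTTC or TTCNNGAA, palindromes that lie within any 3-unit match). The windows of 4 of the 63 genes (6.35%) held 3 units, namely Hspd1, Hspe1, Hsph1 and Dnajb6, against 0.662% of the 27025 genes with a window. The 3-unit matches of Hspd1 and Hspe1 are the same bases of their shared promoter read on opposite strands, so these genes are not separate cases. With 2 units the share was 30.2% (19 of 63), against 17.0% of all genes. A match is a description of letters, not a binding site, and a window with no match says nothing of the factor. The window of Dnajb6, a gene that peaked in replicate 2 in CPM, is not shown. A link between matches and the order of libraries was not tested. The windows shown are that of Hspe1, which shares 285 of its 300 bases (95%) with the window of Hspd1 on the opposite strand, that of Hsph1, the other gene whose spread between libraries is described below, and that of Hspa1b, as a heat-inducible gene at a low level; capitals mark every 2-unit and 3-unit match.
Hspe1, chr1:55087898-55088197, plus strand: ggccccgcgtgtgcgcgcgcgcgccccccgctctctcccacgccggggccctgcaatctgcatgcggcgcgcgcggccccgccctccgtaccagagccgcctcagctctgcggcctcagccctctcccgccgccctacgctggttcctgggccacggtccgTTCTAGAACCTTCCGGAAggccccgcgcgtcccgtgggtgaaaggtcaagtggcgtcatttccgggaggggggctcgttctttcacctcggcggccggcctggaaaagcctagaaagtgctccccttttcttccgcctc
Hsph1, chr5:149636266-149636565, minus strand: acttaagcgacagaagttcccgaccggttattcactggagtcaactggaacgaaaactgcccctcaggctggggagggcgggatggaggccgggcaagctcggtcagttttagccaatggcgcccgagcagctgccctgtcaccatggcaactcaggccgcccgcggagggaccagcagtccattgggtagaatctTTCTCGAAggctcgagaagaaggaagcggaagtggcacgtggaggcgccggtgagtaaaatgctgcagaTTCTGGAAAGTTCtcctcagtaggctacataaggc
Hspa1b, chr17:34959189-34959488, minus strand: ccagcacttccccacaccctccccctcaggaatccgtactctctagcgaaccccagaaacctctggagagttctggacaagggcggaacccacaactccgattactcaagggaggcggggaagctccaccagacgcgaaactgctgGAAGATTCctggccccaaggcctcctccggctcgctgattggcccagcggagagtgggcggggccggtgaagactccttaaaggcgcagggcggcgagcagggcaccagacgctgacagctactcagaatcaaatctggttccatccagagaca

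The Hspe1 match is a run of 4 units, each 2 bases from the next, at -89 to -72 relative to the start. In the Hsph1 window shown a 3-unit match lies 15 to 27 bases after the start and a 2-unit match at -54 to -47. Another Hsph1 window has a different start, and the same 3-unit match begins 36 bases after it. In Hspa1b the 2 units lie at -104 to -97. The window of Hspa1a differs from that of Hspa1b at 4 of 300 positions.

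Hspd1 had 1232, 1181, 1385 and 1026 TPM in replicates 1 to 4. Hspe1 had 433.3, 427.1, 452.2 and 384.1 TPM in the same libraries. Both peaked in replicate 3 and were lowest in replicate 4, as Hsph1 was. Hspd1 exceeded Hspe1 in every library, by a TPM ratio of 2.84 ± 0.167 with the length of all exons and of 1.62 ± 0.0954 with the length of 1 main transcript (SD, n = 4). For Hspd1 44.8% and for Hspe1 36.1% of the windows occur in transcripts of other loci.

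All 8 subunits of CCT, the cytosolic ring that folds actin and tubulin, were abundant, and together they made up 0.482% ± 0.0278 of all TPM (SD, n = 4). With the length of all exons Cct2 was highest, with 1044, 1045, 1088 and 970 TPM in replicates 1 to 4, and Cct7 lowest, with 315.8, 309.9, 322.2 and 272.8 TPM. In between, Cct5 averaged 775, Cct8 760, Tcp1 596, Cct6a 594, Cct4 441 and Cct3 311 TPM. Neighbours in this order overlapped between libraries for Cct5 and Cct8, for Tcp1 and Cct6a, and for Cct3 and Cct7. Within every library, however, Cct5 stood above Cct8 and Cct3 above Cct7. Tcp1 stood above Cct6a except in replicate 3.

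The 8 proteins stand in equal number in the complex, but the order and the distance of their transcripts depended on the length used. The ratio of the highest to the lowest mean subunit was 3.402 ± 0.108 over the 4 libraries with all exons. It was 1.82 ± 0.0735 with the length of 1 main transcript per gene, a scale added after the levels were seen. On that scale Cct2 was highest, at 930 ± 43.4 TPM, and Cct4 lowest, at 512 ± 41.6 TPM (SD, n = 4 each), while Cct3 and Cct7 moved to 689 and 582 TPM. All 8 subunits had their maximum in replicate 3 and their minimum in replicate 4 in TPM.

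**Figure D2:**
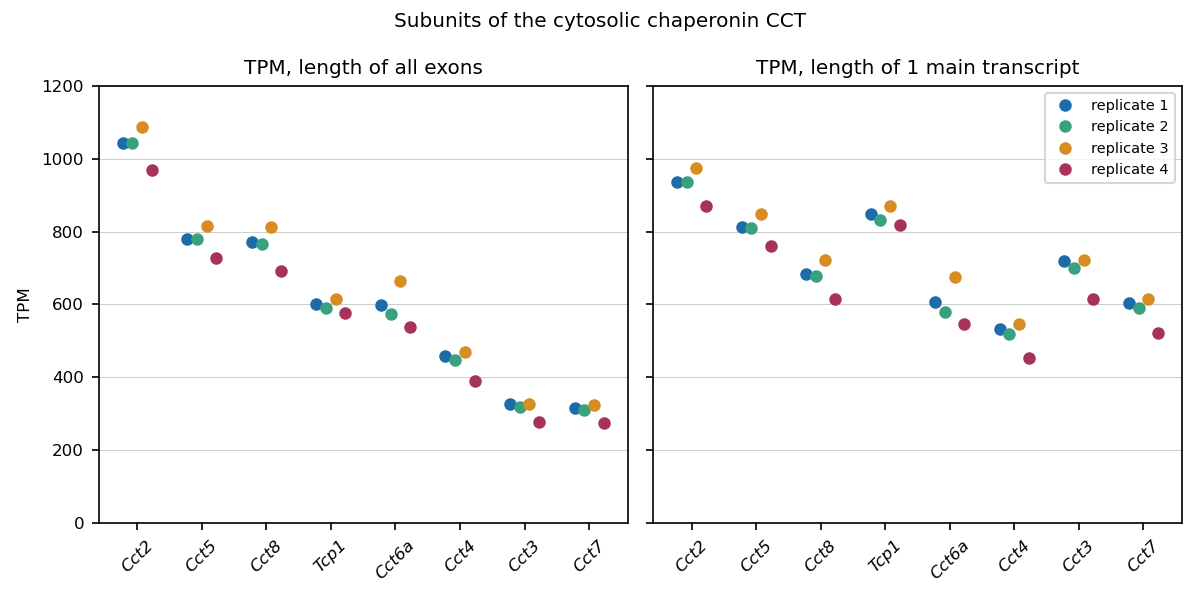
TPM of the 8 CCT subunits with the length of all exons (left) and of 1 main transcript per gene (right), in order of the all-exon mean; each point is 1 library. The subunits span 305 to 1036 TPM in mean on the left and 512 to 930 TPM on the right.

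The small heat shock proteins (Hspb genes) were the family least expressed, at 0.00257% of all TPM, with 2 of 8 genes at 1 TPM or more in every library. These were Hspb11, at 15.7 ± 2.25 TPM (36.8 with 1 main transcript), and Hspb6, at 9.82 ± 1.04 TPM (SD, n = 4 each). Hspb11 is an intraflagellar transport protein (IFT25) that lacks the role of a classic small heat shock protein, and Hspb6 (Hsp20) is known from muscle. Hspb1 (Hsp27), the stress-inducible member, had 1 count in 4 libraries, and Hspb7, known from heart, averaged 0.159 TPM. For Hspb1 60.4% of the windows also occur in other transcripts. Hspb2, Hspb3, Hspb8 and Hspb9 had no count.

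Of the 45 J proteins, 39 reached 1 TPM in every library: 4 of 4 Dnaja, 11 of 13 Dnajb and 24 of 28 Dnajc genes. With the length of all exons Dnaja2, a general co-chaperone of cytosolic Hsp70, was highest among them in mean, at 308 ± 16.4 TPM (SD, n = 4). On the scale of 1 main transcript per gene Dnajc8 was highest, at 248 TPM, and Dnaja2 averaged 216 TPM. Dnaja1, a close relative of Dnaja2, had 51.0, 50.5, 54.2 and 49.5 TPM in replicates 1 to 4, and Dnaja4 averaged 17.2 TPM. Dnajb1 (Hsp40), the heat-inducible J protein of cytosolic Hsp70, had 102.7, 103.4, 87.9 and 101 TPM. Replicate 3 was the low library for Dnajb1 and the high one for Dnaja1.

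Other cytosolic Dnajb genes were lower. Dnajb6, a suppressor of protein aggregation, averaged 25.1 TPM with all exons and 65.2 TPM with 1 main transcript, and 41.9% of its windows occur in other transcripts. Dnajb2, known from neurons, averaged 18.3 TPM (28.9 with 1 main transcript), Dnajb5 16.7 TPM and Dnajb4 3.92 TPM (9.57 with 1 main transcript). Dnajb3 and Dnajb13, known from testis, averaged 3.04 and 1.70 TPM. Dnajc7, a J protein that binds both Hsp70 and Hsp90, averaged 146 ± 4.05 TPM (SD, n = 4).

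J proteins of the nucleus and the ribosome were all above 1 TPM in every library (5 of 5). Dnajc9, a co-chaperone of histones H3 and H4, averaged 267 ± 3.00 TPM, and Dnajc8, a spliceosome protein, 198 ± 5.98 TPM (SD, n = 4 each). Their order reversed with 1 main transcript, at 184 TPM for Dnajc9 and 248 TPM for Dnajc8. Dnajc2, which joins Hspa14 in the ribosome-associated complex, averaged 114 ± 4.93 TPM (185 with 1 main transcript), Dnajc21, a factor of 60S ribosome maturation, 67.0 ± 6.13 TPM (107), and Dnajc17 22.2 ± 1.39 TPM (SD, n = 4 each).

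Of the J proteins of the endoplasmic reticulum 10 of 10 were above 1 TPM in every library. Dnajb11, which works with the Hsp70 of that compartment, had 138.5, 139.4, 151.6 and 137.4 TPM in replicates 1 to 4, with replicate 3 apart from the other 3. Dnajc10, a disulfide reductase, averaged 110 ± 4.06 TPM, and Dnajc3 (P58IPK) 74.3 ± 0.719 TPM (SD, n = 4 each). Dnajb9, known as a target of the unfolded protein response, had 10.96, 11.37, 8.53 and 12.85 TPM, lowest in replicate 3 and highest in replicate 4. Dnajb12 averaged 51.2 TPM, Dnajc16 18.5, Dnajc18 14.98, Dnajc1 12.99, Dnajc25 7.68 and Dnajb14 2.13 TPM.

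Mitochondrial J proteins were above 1 TPM in every library in 5 of 6 cases. Dnajc15 (MCJ), a negative regulator of respiratory complex I in mouse T cells, averaged 170 ± 11.7 TPM, and its relative Dnajc19 (Tim14), which drives the import motor, 16.4 ± 1.35 TPM (SD, n = 4 each). With the length of 1 main transcript, capped for Dnajc15 at the 648 bases of its counted exons, they stood at 117 and 68.9 TPM. For Dnajc19 32.0% of the windows occur in other transcripts. Dnaja3, the J protein of mitochondrial Hsp70, averaged 72.1 ± 2.63 TPM, Dnajc11 37.3 (86.8 with 1 main transcript) and Dnajc30 30.6 TPM, while Dnajc28 averaged 0.567 TPM.

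Of the vesicle J proteins, Dnajc5 (cysteine string protein) averaged 81.6 ± 5.77 TPM and Dnajc13, an endosomal protein, 48.4 ± 0.523 TPM (SD, n = 4 each). Dnajc6 (auxilin), the neuronal uncoating factor of clathrin, averaged 1.60 ± 0.202 TPM. The remaining Dnajc genes with counts averaged 51.9 TPM (Dnajc14), 36.7 TPM (Dnajc24, a diphthamide synthesis protein), 30.1 TPM (Dnajc4), 11.2 TPM (Dnajc27), 7.01 TPM (Dnajc12) and 0.995 TPM (Dnajc22).

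To compare related genes within the same cells, the difference in log2(TPM + 1) was taken in each library for 12 pairs of paralogues or partners. The sign was the same in 4 of 4 libraries for 11 pairs. Each of these gave p = 0.125 in an exact sign-flip permutation test (two-sided, Benjamini-Hochberg adjusted 0.136 over the 12 pairs), which is the lowest value possible with 4 libraries and stays above the 0.05 threshold by design. With the length of all exons the largest differences were those of Hspa8 over Hspa1a (log2 9.74), over Hspa1b (8.42) and over Hspa2 (8.40). These values depend on the 1 added to each TPM: with 0.1 added, Hspa8 minus Hspa1a was 10.76, and the mean ratio of the TPM themselves was 2068. Hspa9 exceeded its J protein Dnaja3 by 3.60, Hspa4 exceeded Hspa4l by 2.86 and Hsph1 by 1.17 ± 0.110 (0.50 with 1 main transcript), and Hsp90ab1 exceeded Hsp90aa1 by 2.60 ± 0.0269 (log2; SD, n = 4).

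The partners of the ribosome-associated complex differed least. Hspa14 minus Dnajc2 was -0.06 ± 0.0727 (log2; SD, n = 4), with the same sign in 3 of 4 libraries and p = 0.25 in the exact sign-flip permutation test (two-sided, adjusted 0.25). The difference depended on length, at -0.12 with 1 main transcript and -0.37 in CPM with no length. Both of these gave an unadjusted p of 0.125 in the same sign-flip test. The TPM ratio of Hspa14 to Dnajc2 was at most 0.963 with 1 main transcript. Dnaja1 lay below Dnaja2 by a log2 difference of -2.56 and below Dnajb1 by -0.93 ± 0.161 (SD, n = 4). The sign of Dnaja1 minus Dnajb1 depended on length, and in CPM, with no length, it was 0.48. Dnajc15 exceeded Dnajc19 by 3.29 with all exons and by 0.75 with 1 main transcript, and Hspd1 exceeded Hspe1 by 1.4998 and 0.70 on these scales. For Dnajc15 the length was the same on both scales.

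**Figure D3:**
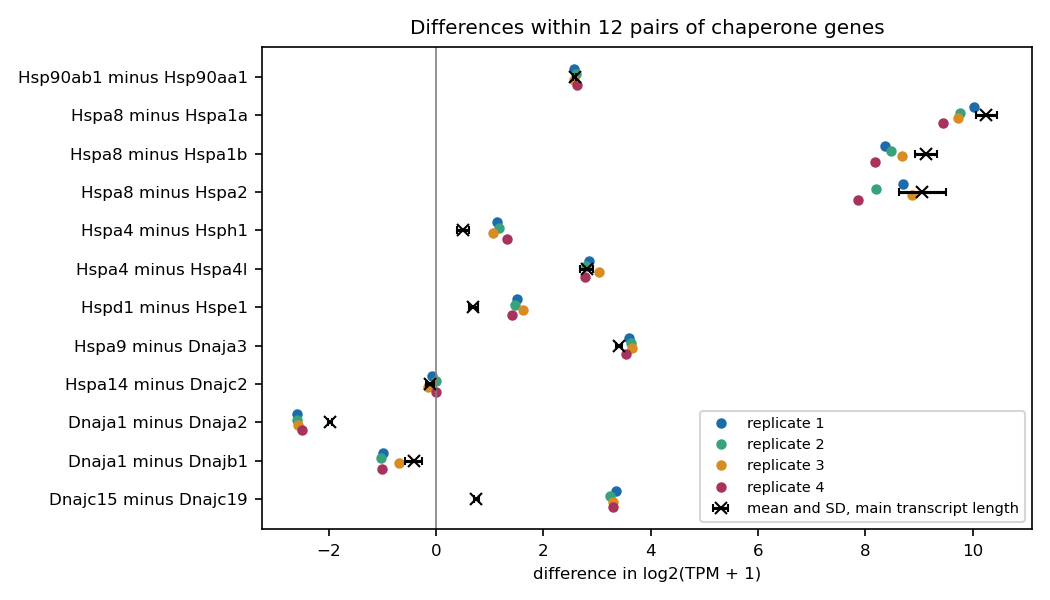
Difference in log2(TPM + 1) within 12 gene pairs, first gene minus second; coloured points are the 4 libraries with the length of all exons, and crosses with bars the mean and SD with 1 main transcript per gene. With the length of all exons, 11 of the 12 pairs lie on 1 side of 0 in all 4 libraries, and Hspa14 minus Dnajc2 lies around 0.

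The spread of the chaperones between libraries was set beside that of all genes tested. The test of spread in edgeR, which asks whether a gene varies more than others of its abundance, took 63 of the 78 genes, and the other 15 were too low to be tested. It called none of the 63 at an adjusted p of 0.05, against 0.00823% of all 12156 genes tested (1 gene). With so few calls among all genes, the lack of a call does not show that the chaperones vary little. At an unadjusted p under 0.05 there were 2 of 63 (3.17%), against 4.9% of all genes tested. They were Hsph1 (unadjusted p = 0.0409, adjusted p = 0.988 in edgeR) and Hspd1 (unadjusted p = 0.0489, adjusted p = 0.991 in edgeR). DESeq2, run as an alternative that marks genes whose dispersion lies far above the trend, marked none of the 70 chaperone genes with counts. The median coefficient of variation over the libraries, in TMM-normalised CPM, was 6.16% for the 63 and 7.91% for all genes tested. These medians were not matched for abundance.

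The least variable of the 63 was Dnajc13, with a coefficient of variation of 0.234% in CPM. Among the 63 genes tested, the largest ratios of the highest to the lowest library in CPM were 2.07 for Hspa1a, 1.95 for Hspa2, 1.59 for Dnajb3, 1.48 for Dnajb9 and 1.47 for Dnajc25, all of them at mean levels below 11 TPM.

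**Figure D4:**
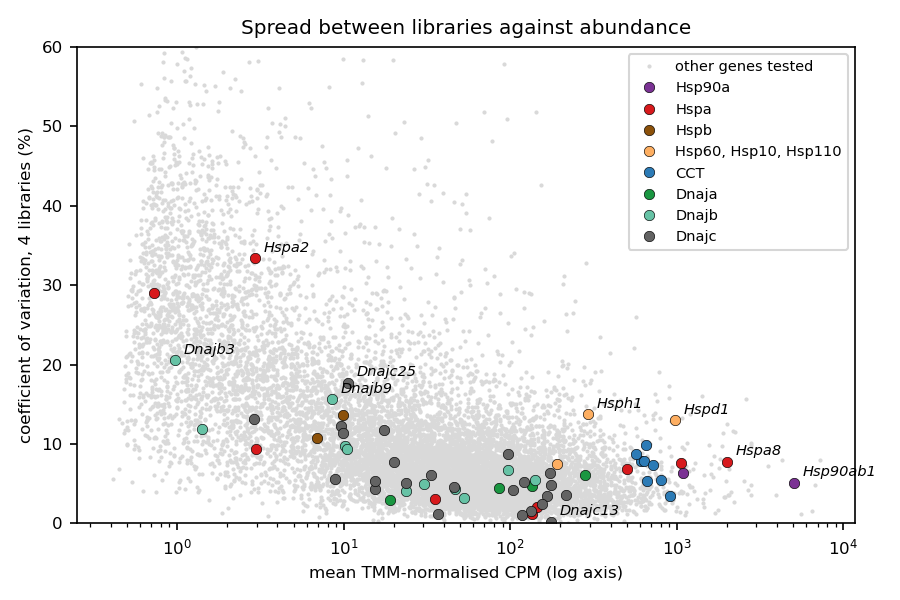
Coefficient of variation over the 4 libraries (%) against the mean TMM-normalised CPM (log axis); coloured points are the 63 chaperone genes tested and grey points the other genes tested, of which 49 lie above the axis. Hspd1 and Hsph1 stand above other chaperones of like abundance, at 13.03% and 13.8%, and Hspa2 has the largest value, 33.4%.

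The order of the libraries differed between the chaperones. In TMM-normalised CPM 25 of the 63 genes (39.7%) peaked in replicate 3 and had their minimum in replicate 4, against 20.6% of all genes tested. The reverse order was seen in 12 of 63 (19.0%), against 20.5%. These are counts with no test, and genes of 1 library are not independent of each other. The 25 were all 8 CCT subunits, both Hsp90 genes, Hspa4, Hspa8, Hspa9, Hspd1, Hspe1, Hsph1, Dnaja1, Dnaja2, Dnaja3, Dnajb5, Dnajb11, Dnajc2, Dnajc7, Dnajc11 and Dnajc27. The 12 with the reverse order were Hspa1b, Hspa2, Hspa13, Hspb11, Dnajb3, Dnajb9, Dnajb12, Dnajc8, Dnajc13, Dnajc15, Dnajc17 and Dnajc19. An order was counted whatever its size. The ratio of the highest to the lowest library in CPM was 1.0057 for Dnajc13, and among the 25 it was lowest for Dnajc7, at 1.08. In replicate 3, Dnajb3 and Hspa1b rested on 7 and 24 counts.

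Replicate 3 over the mean of the other 3 libraries was a log2 CPM ratio of 0.33 for Hsph1, 0.29 for Hspd1, 0.25 for Cct6a and 0.15 for Hspe1. Replicate 4 over the mean of the other 3 was -0.31 for Hsph1, -0.32 for Hspd1, -0.20 for Cct6a and -0.20 for Hspe1. Dnajb9 ran the other way, with -0.44 in replicate 3 and 0.31 in replicate 4. Replicate 3 was also the shallowest library, and the part of depth in this order was not tested. Over all genes replicate 4 stood furthest from the rest. The chi-square per gene between 2 libraries was 13.7 to 18.5 in pairs with replicate 4 and 3.33 to 7.28 in pairs without it. The part of this difference in the order was not tested either. With CPM of the library total in place of TMM, 24 of 63 genes had the first order, against 16.6% of all genes tested, and 17 of 63 the reverse, against 23.9%.

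**Figure D5:**
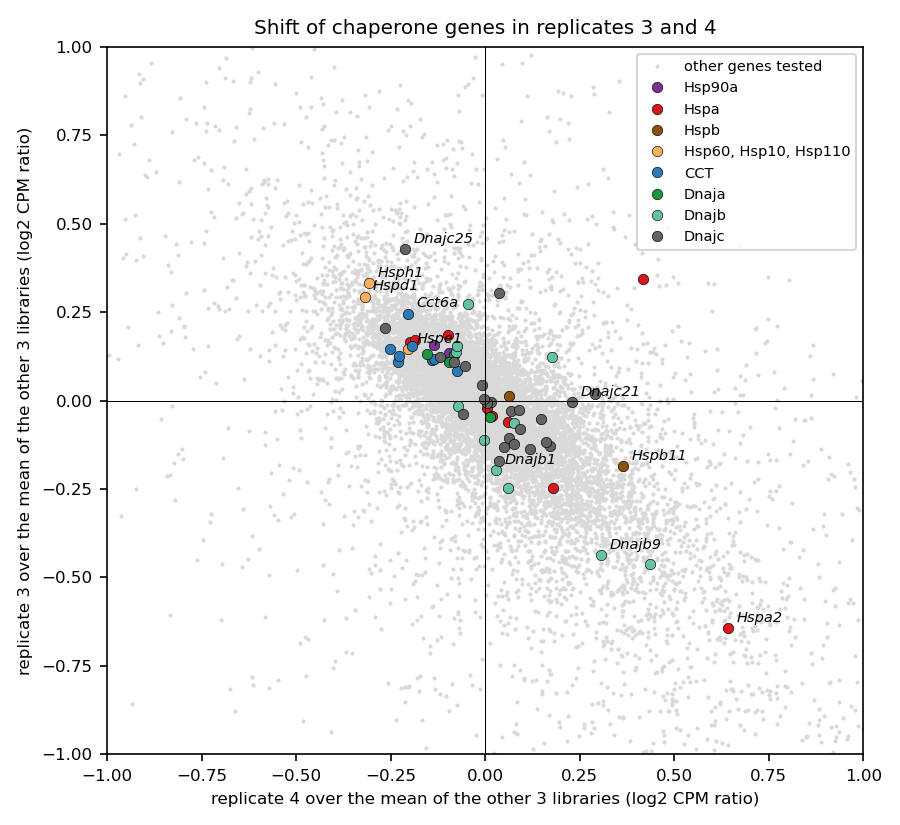
Log2 CPM ratio of replicate 3 (vertical) and of replicate 4 (horizontal) to the mean of the other 3 libraries; coloured points are the 63 chaperone genes tested and grey points the other genes tested, of which 336 lie outside the axes. Hspd1 and Hsph1 lie at the upper left and Dnajb9 at the lower right.

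Genes that work with the chaperones were examined in 5 lists. All 23 co-chaperones of Hsp70 and Hsp90 were above 1 TPM in every library, with a median of 142 TPM. Stip1, which links Hsp70 to Hsp90, was highest at 649 ± 26.1 TPM, followed by Ahsa1, an activator of the Hsp90 ATPase, at 511 ± 48.4 TPM and Bag1, a nucleotide exchange factor, at 423 ± 13.7 TPM (SD, n = 4 each). Of the 23, 11 peaked in replicate 3 with their minimum in replicate 4 (47.8%, against 20.6% of all genes tested), and 1 had the reverse order (4.35%, against 20.5%). Over all 5 lists these orders were seen in 19 and 8 of the 50 genes tested: in 2 and 2 prefoldin and CCT partners, 1 and 2 heat shock factors, 4 and 1 mitochondrial partners, and 1 and 2 actin and tubulin genes.

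The subunits of prefoldin, which hands actin and tubulin to CCT, and other CCT partners had a median of 89.4 TPM, and 9 of 10 were above 1 TPM in every library. The exception was Cct6b, the testis form of Cct6a, at 0.528 ± 0.111 TPM (SD, n = 4). The 6 actin and tubulin genes ranged from 258 TPM (Tuba1c) to 7952 TPM (Actb). Of the 9 mitochondrial partners, all above 1 TPM, the proteases Lonp1 and Clpp averaged 252 and 176 TPM, the mitochondrial Hsp90 Trap1 208 TPM and Clpb 15.3 TPM.

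Of 6 genes, the heat shock factors and the regulator Hsbp1, 3 were above 1 TPM in every library. Hsf1, the main factor of the heat shock response, averaged 89.9 ± 5.83 TPM, Hsbp1, which binds Hsf1, 98.9 ± 9.44 TPM, and Hsf2 10.1 ± 0.756 TPM (SD, n = 4 each). Hsf4 averaged 0.408 TPM, Hsf5 had 1 count and Hsf3 none. In edgeR's test of spread 0 of the 50 genes tested in these 5 lists passed an adjusted p of 0.05. At an unadjusted p under 0.05 there were 2 of 50 (4.0%; Lonp1 and Tuba1b), against 4.9% of all genes tested.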

How the data were processed

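RNA was sequenced in 4 Th17 libraries of 1 group. The authors' deposited files hold raw, whole-number counts per gene, of read pairs. Per the file headers, featureCounts 1.4.6-p4 counted exons of GENCODE mouse release 13 with the reverse-stranded option 2; reads with several alignments or over several genes were left out, which can lower genes with close copies. The build is mm10 per the labels; the aligner version is not stated there. The assay is labelled total RNA, while the linked protocol is named for poly(A) RNA.

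TPM were computed here from counts and exon lengths (also with 1 main transcript per gene, GENCODE 21, added after seeing the data). The main-transcript length was capped at the counted exon length of the gene. Of the genes, 224 had no symbol in release 21 and held 0.0104% of counts. Spread was tested with edgeR 4.0.16 (quasi-dispersion, TMM, filterByExpr, Benjamini-Hochberg, adjusted p 0.05; DESeq2 1.42.0 as alternative), and the edgeR test was also run on simulated data with known changes. Libraries differed beyond sampling noise (chi-square per gene 3.33 to 18.5, highest in pairs with replicate 4) and were kept separate. Gene lists, pairs and members were chosen with earlier results of these data known. Genes named were all members, and list genes by highest or lowest level or a spread p under 0.05. Floors cover counting error only.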

Additional observations from a re-analysis of the deposited data

Results flagged for a closer look

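In 6 of 84 values examined, the highest or lowest of the 4 libraries stood apart from the other 3 by more than Dixon's 95% limit for the gap as a share of the range; chance alone gives about 1 in 20. For Dnajb1 the gap took 0.848 of the range, with 87.9 TPM in replicate 3 and 101 to 103.4 TPM in the others. For Dnajb11 it took 0.858, with 151.6 TPM in replicate 3 and 137.4 to 139.4 TPM in the others. For the difference Dnaja1 minus Dnajb1 it took 0.930, again through replicate 3, the shallowest library; the part of depth was not tested. Hspa12b (0.833), Hspb1 (1.0) and Hspa1l (1.0) rest on 4, 1 and 3 counts over all libraries.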

How the results depend on the processing

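The depth of replicate 3 limits the lowest genes, uncounted shared reads may lower those with close copies, and levels compared between genes depend on the length used. With 1 main transcript per gene, a choice made after seeing the data, 58 of 70 levels moved by more than 1 SD. Over all 70, the ratio of the main-transcript to the all-exon level ran from 0.687 (Hspa1l) to 4.20 (Dnajc19), with 11 over 1.5. Hspa1l did not move by more than 1 SD. Its length is 2472 bases on both scales, so its ratio reflects the rescaling of the TPM sum alone. The share of the chaperone genes was 1.99% of counts and 1.96% of TPM over protein-coding genes. The CCT ratio was 1.62 in CPM with no length and 1.82 with main transcripts. Dnaja1 minus Dnajb1 reversed to 0.48 in CPM with no length, and the other 95 of 96 alternative pair values kept their direction. Most of these could not change it. Another added constant or TPM sum keeps the order of genes within a library. Leaving out 1 library cannot reverse a mean whose libraries all share a sign, as most pairs do. For those pairs only a change of length, in CPM or with main transcripts, could reverse the direction. No alternative, including each replicate left out, called any chaperone gene in edgeR's test of spread, also with no filter on low counts (70 genes, lowest adjusted p 0.425). Genes at 1 TPM or more numbered 62 without any 1 replicate, and 55 reached 5 TPM. No paired analysis was possible because there is 1 group only.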
